A study of Homo sapiens with 30 samples.

Results

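The RNA of TIA1 stress granule cores was compared with cytosol RNA in arsenite-stressed HEK293 cells that carry the wild-type protein. The libraries were picked by their titles: 3 of the granule fraction and 3 of cytosol, 6 of the 30 in the series. HEK293 is an established line of human embryonic kidney cells, and the Flp-In T-REx derivative used here expresses GFP fused to TIA1a from a transgene under tetracycline control. Both groups came from this wild-type (WT) line, received tetracycline and then 0.5 mM sodium arsenite for 60 min, and differ only in the fraction sequenced. The granule fraction was what GFP-binding beads retained from the pellet of a spin at 16873 g, made from the supernatant of a spin at 1000 g, per the series' design text. It therefore holds what pellets and binds the beads. A pull-down from cells without the tag is not analysed here. Further groups served for contrast: WT granules and cytosol after tetracycline without arsenite, and both fractions of arsenite-treated cells of the other line of the series, WDM, whose GFP-TIA1a carries the Welander distal myopathy mutation. These groups, and both fractions of WDM cells after tetracycline without arsenite, also entered the fit. All 24 libraries of tetracycline-treated cells thus set the filter, the scaling and the estimate of spread. Every group had 3 libraries. Nothing in the labels says that replicates were separate cultures. The p-values therefore measure only the spread between replicate libraries of the 24 fitted, which may be technical.

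Stress granules are assemblies of RNA and protein that form in the cytoplasm when initiation of translation is blocked and messenger RNA runs off ribosomes. Arsenite brings this about through oxidative stress and phosphorylation of the initiation factor eIF2. TIA1 is an RNA-binding protein that favours U-rich sequences and helps to nucleate the granules, together with proteins such as G3BP1. Granules have a dense core within a more fluid shell, and the core is the part that withstands lysis and can be pelleted.

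The cytosol libraries held 12499022 to 13105930 counts and the granule libraries 18864056 to 26935119. A count of 0 allowed up to 3 counts, which is 0.111 to 0.240 CPM (counts scaled to library size) and covers counting error only. TIA1 itself was listed at 0 in all 6 libraries, so the transgene could not be checked from its RNA. Its paralog TIAL1 stood at 63.8, 58.0 and 51.7 CPM in cytosol and at 77.2, 81.5 and 67.2 CPM in granules. As markers of the line, VIM, KRT8 and KRT18 were present in cytosol at 134 to 815 CPM and EPCAM at 80.6 to 89.0 CPM, whereas CDH1 was at 3.81 to 6.83 CPM, PAX2 was at 3.36 to 5.50 CPM, and NEFM was too low to be tested. CPM values of genes are relative to the library total after TMM scaling between libraries, with factors of 0.970 to 1.07 in these 6. The CPM given above for 3 counts uses the plain total. A gene at a lower CPM in granules can be present in the same absolute amount, and fewer granules per cell cannot be told apart from less RNA per granule.

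Which transcripts did the granule fraction hold in excess of cytosol, and which did it lack? Of 18141 genes tested, 12797 (70.5%) differed between granules and cytosol at an adjusted p under 0.05 (edgeR quasi-likelihood test, Benjamini-Hochberg adjustment). The 6358 higher in granules were 35.0% of genes tested and the 6439 lower were 35.5%. By at least log2 1, 3687 genes (20.3%) were higher and 4041 (22.3%) lower. All 3 granule libraries lay on one side of all 3 cytosol libraries for 13662 genes (75.3%). The median log2 fold change, granule minus cytosol, was 0.05. A functional class is read against these shares. The classes are lists of genes chosen with earlier results of these data known, so their counts are descriptions. A sentence such as "81 of 87 tested" gives the members that passed the filter on low counts, of those listed. Members were left out by the filter when their counts were low in all groups, and some of these are genes that most cells express: RPL17 had 2 counts in the 6 libraries together, RPL36A had 10 and HNRNPA1 had 0. How the counting treated reads that fit several genes is not given in the sources used here.

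**Figure D1:**
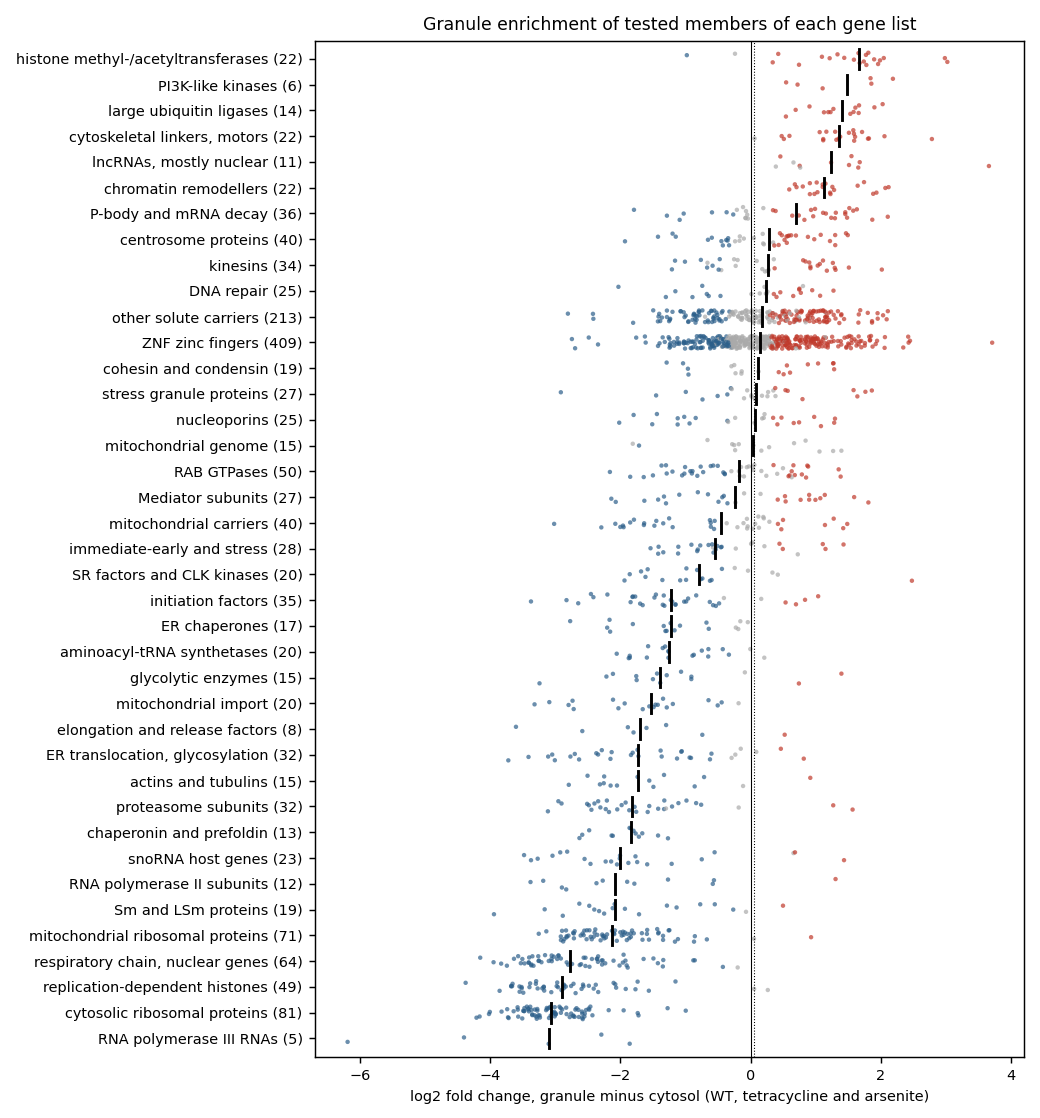
Log2 fold change of every tested member (1 point per gene, x axis) in 39 gene lists (y axis, number of tested members in parentheses), with red for genes called higher in granules, blue for genes called lower, grey for genes not called, and a black bar at the list's median. The dotted line is the median of all genes tested, 0.05. The lists run from RNA polymerase III RNAs and cytosolic ribosomal proteins, with medians of -3.10 and -3.07, to histone methyltransferases and acetyltransferases, with a median of 1.67.

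The messages of the translation machinery were depleted from granules. Of cytosolic ribosomal protein genes, 81 of 87 were tested and all 81 fell below cytosol, with a median log2 fold change of -3.07. Together the 87 listed genes took 4.83, 5.00 and 5.08% of all counts in the 3 cytosol libraries and 0.593, 0.642 and 0.718% in the 3 granule libraries. RPL12, a protein of the large subunit stalk base (chr9:127447674-127451406 on GRCh38), had 514, 536 and 528 CPM in cytosol and 25.8, 25.5 and 33.7 CPM in granules. RPL12 was thus 18.6-fold lower (log2 -4.21, SE 0.19, edgeR adjusted p = 2.84e-16), the lowest value in the list. RPS12 of the small subunit stood at 385, 389 and 399 CPM in cytosol against 23.8, 23.4 and 25.7 CPM in granules. For both genes the fractions were far apart and replicates close. The most abundant members fell less: RPL4 had a log2 fold change of -2.59 and RPLP0, an acidic stalk protein, of -3.14. The weakest depletion was that of RPL3L, the paralog of RPL3 known from striated muscle, at 3.14, 2.30 and 2.84 CPM in cytosol and 0.985, 1.77 and 1.33 CPM in granules (log2 -1.0, edgeR adjusted p = 0.0101), a call that was lost without granule replicate 1.

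Ribosomal protein and elongation factor messages are known as TOP mRNAs: their first base is a C that is followed by an unbroken run of pyrimidines, through which LARP1 and mTOR signalling control their translation. The starts below, read from GENCODE v44 canonical transcripts on GRCh38, show this in 5 depleted messages and in the snoRNA host GAS5. The annotated starts of 3 enriched transcripts and of the host SNHG1 do not show it. Each line gives the first 20 bases, with capitals marking an unbroken pyrimidine run that opens with C and holds at least 4 more C or T.
RPL12, chr9:127451387-127451406, minus strand: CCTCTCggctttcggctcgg
RPS12, chr6:132814569-132814588, plus strand: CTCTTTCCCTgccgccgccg
RPS21, chr20:62387103-62387122, plus strand: CCTTTCTCTCTCgcgcgcgg
EEF1A1, chr6:73521013-73521032, minus strand: CTTTTTCgcaacgggtttgc
EEF1B2, chr2:206159895-206159914, plus strand: CCTTTTTCCTCTCTTCagcg
GAS5, chr1:173867970-173867989, minus strand: CTTTTCgaggtaggagtcga
KMT2D, chr12:49060775-49060794, minus strand: gccgctccgctccaacacaa
AHNAK, chr11:62546787-62546806, minus strand: ggccactcggagctgctctg
HUWE1, chrX:53686700-53686719, minus strand: gactgagggctagcgagggg
SNHG1, chr11:62855903-62855922, minus strand: ggcatggtatttaatcgtct

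This look at starts was added after the data were seen. Such a start was present in 58 of the 81 ribosomal protein genes tested (71.6%), in 5 of 8 elongation and release factors and in 705 of all 13584 protein-coding genes tested (5.19%). Among all protein-coding genes the median log2 fold change was -0.41 with such a start and -0.01 without. Within ribosomal protein genes the medians were -3.10 with and -2.92 without. They were -1.80 and -0.74 in elongation and release factors, and -1.66 and -1.0 in initiation factors. The order was the other way in mitochondrial ribosomal proteins, at -1.56 with (4 genes) and -2.21 without. In snoRNA hosts it was also the other way, at -1.89 with (4 genes) and -2.05 without. Of proteasome subunits only 1 had such a start, at -1.98 against a median of -1.78 for the rest. These differences were not tested. A match, or the lack of one, describes the annotated start only. The starts used in these cells were not measured, so a gene counted as without such a start may have one.

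Of elongation and release factors, 7 of 8 tested fell and 1 rose, with a median of -1.70. EEF1A1, which delivers aminoacyl-tRNA to the ribosome, had 4292, 4340 and 4359 CPM in cytosol and 762, 657 and 744 CPM in granules. EEF2, the translocase, had 3360, 3321 and 3471 CPM and 837, 909 and 1171 CPM. EEF1B2, a subunit of the exchange factor of EEF1A1, was the lowest of the list at log2 -3.61. All 3 were separated from cytosol in every library. The exception was the release factor gene GSPT1, which rose to log2 0.53 (edgeR adjusted p = 0.00256) and whose transcript of 7141 bases is long for this list.

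Initiation factors were split by gene. 29 of 35 tested fell, 4 rose and the median was -1.22. EIF3I, a small subunit of eIF3, was 10.4-fold lower in granules, and EIF4B, which stimulates the helicase eIF4A, had 884, 887 and 942 CPM in cytosol and 349.9, 348 and 463 CPM in granules. The scaffolds of the cap-binding complex went the other way. EIF4G1 had 738, 676 and 747 CPM in cytosol and 1159, 1093 and 1612 CPM in granules (log2 0.84, SE 0.20, edgeR adjusted p = 4.14e-04), and EIF4G3 had a log2 fold change of 1.04. Of aminoacyl-tRNA synthetases, which charge tRNAs, 18 of 20 fell and 0 rose (median -1.26). They ranged from KARS1 at -2.06 among the called genes to IARS1 at -0.33, whose call did not hold when any one of 5 of the 6 libraries was left out.

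Nuclear genes for mitochondrial proteins were depleted as broadly. Of nuclear-encoded respiratory chain subunits, 63 of 64 tested fell and 0 rose, with a median of -2.77. The share of counts of all 81 listed genes was 0.925, 0.974 and 1.02% in cytosol and 0.197, 0.210 and 0.218% in granules. NDUFA4, a small subunit associated with cytochrome c oxidase, had 90.0, 93.4 and 97.6 CPM in cytosol and 5.58, 5.34 and 4.87 CPM in granules, a 17.8-fold difference. ATP5F1B, the catalytic beta subunit of ATP synthase and the most abundant member, fell only 2.81-fold. Of mitochondrial ribosomal proteins, 69 of 71 fell and 1 rose (median -2.13). The riser was MRPL19, at 124, 119 and 116 CPM in cytosol and 289, 196 and 200.3 CPM in granules. Its transcript has 7825 bases, against a median of 1315 for the list. MRPL42, whose annotated transcript is longer still at 15557 bases, fell to log2 -0.86, and MRPL54 was the lowest at -3.26.

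The import machinery behaved alike: 19 of 20 genes fell, with a median of -1.52. TIMM8B, a small chaperone of the intermembrane space, was 9.99-fold lower, and the outer-membrane receptor TOMM20 1.56-fold lower. Carriers of the inner membrane (SLC25) were less uniform, with 20 of 40 lower and 7 higher (median -0.46). SLC25A5, an ADP/ATP carrier, fell to log2 -3.02, and SLC25A21, an oxodicarboxylate carrier, rose to 1.49.

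Transcripts of the mitochondrial genome itself were not separated in this way. Of 15 genes tested, 0 rose and 1 fell, with a median of 0.04 that ran from -0.88 without granule replicate 3 to 0.37 without granule replicate 1. MT-CO1, a catalytic subunit of cytochrome c oxidase, had 699, 665 and 674 CPM in cytosol and 406, 417 and 890.3 CPM in granules, where the third library lay above cytosol and the others below. MT-CO3 was the gene that fell, from 316, 307 and 346 CPM to 58.5, 76.0 and 160.4 CPM (log2 -1.71, edgeR adjusted p = 4.50e-04). The genome's share of counts was 0.117, 0.114 and 0.120% in cytosol and 0.0524, 0.0643 and 0.143% in granules. Without granule replicate 3 the median of the list was -0.88.

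Machines that fold and degrade proteins were depleted, with 2 exceptions in the proteasome. Of proteasome subunits, 28 of 32 tested fell, 2 rose and the median was -1.82. PSMD8, a subunit of the regulatory cap, had 504, 498 and 533 CPM in cytosol and 55.4, 67.0 and 75.4 CPM in granules. PSMD1, a large cap subunit, fell to log2 -0.98 and PSMB3 of the core to -3.12. PSMA1, a core subunit, was 2.97-fold higher, but at 12.8, 13.9 and 10.2 CPM in cytosol it was among the scarcer members. Its exons lie by 26.7% within another gene on the same strand, so its value is uncertain. All 13 chaperonin and prefoldin genes tested fell (median -1.84), with log2 values from -2.63 to -1.27. PFDN6 was the lowest at -2.63, and CCT5 of the chaperonin ring stood at -1.80.

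Messages for the endoplasmic reticulum (ER) are translated on its membrane, and they were also mostly low in granules. For translocation and glycosylation, 26 of 32 genes fell and 2 rose (median -1.73). SEC61G, the small gamma subunit of the translocon, was 13.2-fold lower, and SRP9 of the signal recognition particle 6.21-fold. RPN2, a subunit of oligosaccharyltransferase, fell to log2 -1.06. SSR1, a translocon-associated protein with a transcript of 9661 bases, was the highest at log2 0.82. Of ER chaperones, 13 of 17 fell, 0 rose and the median was -1.23. CANX, which encodes the lectin chaperone calnexin, had 1250, 1168 and 1222 CPM in cytosol and 854, 646 and 832 CPM in granules (log2 -0.64, edgeR adjusted p = 0.00367). HSP90B1 stood at log2 -0.68 and ERP29 at -2.77. HYOU1 was at -0.04 and was not called.

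Glycolytic enzymes, actins and tubulins were mostly low in granules. Of glycolytic genes, 12 of 15 tested fell and 2 rose (median -1.39). The higher of these 2 was scarce, at 0.0785, 0.306 and 0.224 CPM in cytosol and 0.493, 0.723 and 0.433 CPM in granules. In cytosol that is near the CPM of 3 counts, and 33.4% of its exon length lies within another gene on the same strand. GAPDH was the lowest, with 2049, 2018 and 2088 CPM in cytosol and 184, 205 and 260.3 CPM in granules. ENO1, enolase, had 2737, 2782 and 2890 CPM and 582, 566 and 663 CPM. GAPDH was 9.47-fold and ENO1 4.64-fold lower, and no granule library reached a cytosol library for either. Of actins and tubulins, 13 of 15 fell and 1 rose (median -1.74), with log2 -2.25 for ACTG1 and -2.51 for TUBA1B. Exons of TUBA1B lie by 44% opposite another gene, and near-identical family members can share reads.

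Replication-dependent histone messages end in a stem-loop in place of a poly(A) tail and were depleted like the ribosomal proteins. Of 49 of 65 histone genes tested, 47 fell and 0 rose (median -2.91). The share of all 65 listed genes was 0.866, 0.887 and 0.894% of counts in cytosol and 0.128, 0.132 and 0.124% in granules. H1-2, a linker histone, had 725, 722 and 724 CPM and 76.1, 84.0 and 80.6 CPM, a 9.01-fold difference. H1-4, the other abundant linker histone, fell 4.23-fold. H3C7 was the lowest at log2 -4.38, and H4C15, scarce in both fractions, was not called at 0.27. Core histone genes have near-identical copies, so values of single ones are uncertain.

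Messages for the machinery of transcription and splicing were mostly low in granules, with single exceptions. Of Sm and LSm proteins, which form the rings of spliceosomal and decay particles, 17 of 19 fell and 1 rose (median -2.09). SNRPD2 was 15.4-fold lower and SNRPB 5.02-fold. LSM11 of the histone pre-mRNA processing particle rose, at log2 0.50. All 12 subunit genes of RNA polymerase II were called, 11 lower and 1 higher. POLR2A, the catalytic subunit, was the higher one, at 194, 109.5 and 108 CPM in cytosol and 308, 314 and 393 CPM in granules (log2 1.31, SE 0.48, edgeR adjusted p = 0.0219). Its call was lost when cytosol replicate 2, cytosol replicate 3 or granule replicate 3 was left out. POLR2B, the second largest subunit, fell to -0.58, and POLR2G, a small stalk subunit, to -3.38. Of SR splicing factors and CLK kinases, 15 of 20 fell and 1 rose (median -0.79). SRSF3 stood at -1.86 and SRSF7 at -1.94. The one that rose was SRRM2, a large scaffold of nuclear speckles, with 156, 106 and 114 CPM in cytosol and 674, 614 and 805 CPM in granules (log2 2.48, edgeR adjusted p = 3.27e-04).

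**Figure D2:**
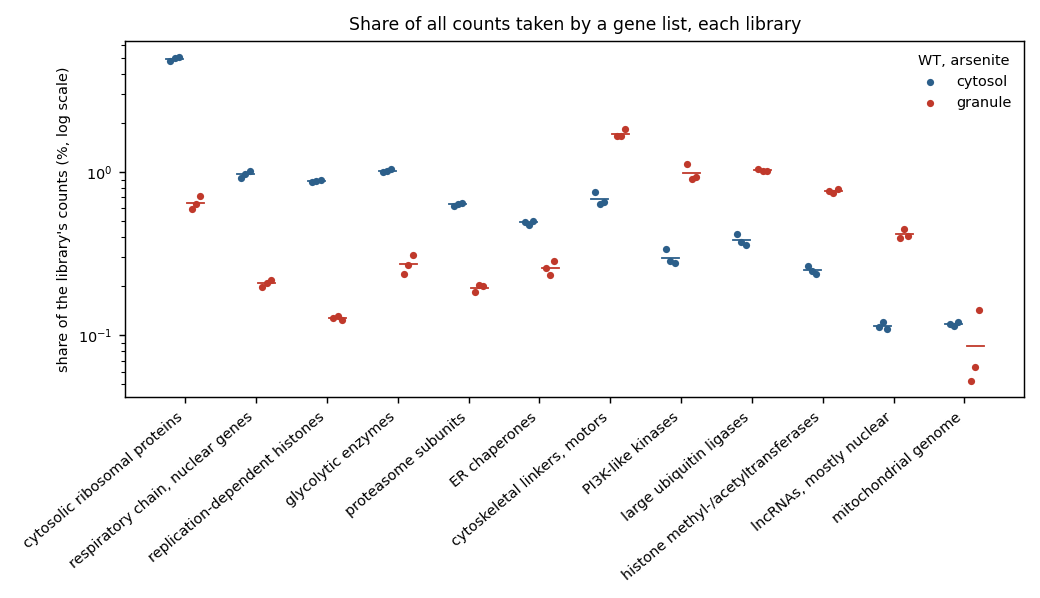
Share of each library's counts (y axis, percent, log scale) taken by 12 gene lists (x axis) in the 3 cytosol (blue) and 3 granule (red) libraries of arsenite-treated WT cells, with a line at each mean. Cytosolic ribosomal proteins took 4.83, 5.00 and 5.08% in cytosol and 0.593, 0.642 and 0.718% in granules, and PI3K-like kinases took 0.337, 0.283 and 0.279% and 1.12, 0.911 and 0.938%. For the mitochondrial genome 1 granule library lies above cytosol and 2 below.

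The lists made up of genes for very large proteins were enriched in granules. Of histone methyltransferases and acetyltransferases, enzymes that modify chromatin, 20 of 22 tested rose, 1 fell and the median was 1.67. KMT2D, a methyltransferase of histone H3 lysine residues at enhancers (chr12:49018978-49060794), had 79.2, 63.0 and 68.0 CPM in cytosol and 528, 579.6 and 559.9 CPM in granules. KMT2D was 7.94-fold higher (log2 2.99, SE 0.44, edgeR adjusted p = 5.34e-06). KMT2A, its relative mutated in leukaemias, had 86.4, 66.1 and 61.1 CPM and 633, 508 and 599 CPM and the highest log2 fold change of the list, 3.03; its exons overlap by 18.3% with another gene on the same strand. NSD1 and KMT2C, the most abundant members, were at 1.96 and 1.99. EHMT2, with a transcript of 3979 bases against a median of 8513 for the list, was the one that fell (-0.98). All 22 chromatin remodellers rose (median 1.13), from SMARCA4 at 0.60 through CHD1 at 0.80 to EP400 at 2.12. The call of SMARCA4 was lost without cytosol replicate 2 or 3 or granule replicate 3.

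PI3K-like kinases are giant kinases of the DNA damage response, growth control and nonsense-mediated decay. All 6 rose, with a median of 1.48. PRKDC, which encodes the catalytic subunit of DNA-dependent protein kinase, had 2080, 1666 and 1681 CPM in cytosol and 7913, 5600 and 5988 CPM in granules (log2 1.85, SE 0.24, edgeR adjusted p = 1.15e-07). SMG1, the kinase of UPF1 in nonsense-mediated decay, was the highest at 2.19, and the checkpoint kinase ATR the lowest at 0.55. All 14 large ubiquitin ligases rose as well (median 1.41). HUWE1 had 741, 598 and 604 CPM in cytosol and 1938, 1976 and 2241 CPM in granules, a 3.17-fold difference. BIRC6 stood at 1.23, RNF213 at 2.03 and UBR2 at 0.54.

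Linkers and motors of the cytoskeleton showed the same direction, unlike actins and tubulins: 21 of 22 rose, 0 fell and the median was 1.37. DYNC1H1, the dynein heavy chain, had 1210, 871 and 897 CPM in cytosol and 3144, 2823 and 3110 CPM in granules. MACF1, which links microtubules to actin, stood at log2 2.06. AHNAK, a giant scaffold protein under the plasma membrane, had 142, 84.9 and 96.7 CPM and 815, 676 and 744 CPM and was 6.91-fold higher. For DYNC1H1 and AHNAK every granule library was above every cytosol library. FLNA, filamin A, was abundant in both fractions and was not called (log2 0.06). A list of 12 transcripts known from published work as rich in stress granules contained several of these genes: 10 of 11 tested rose, 0 fell and the median was 1.61. TRIP11 was the member that was not called, at -0.13. The tested members of this list had a median transcript length of 14730 bases. After tetracycline without arsenite, 9 of the 11 were also higher in the granule fraction (median 1.52), beside 39.5% of all genes tested.

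Beside these enriched classes, RNAs that stay mostly in the nucleus were higher in granules too. The 14 listed nuclear long noncoding RNAs together took 0.113, 0.120 and 0.109% of counts in cytosol and 0.396, 0.450 and 0.408% in granules. Of the 11 that were tested, 8 rose. None of the markers NEAT1, MALAT1 and KCNQ1OT1 was at 0 in any library. The part of nuclear RNA in the enrichment of the large messages was not tested.

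**Figure D3:**
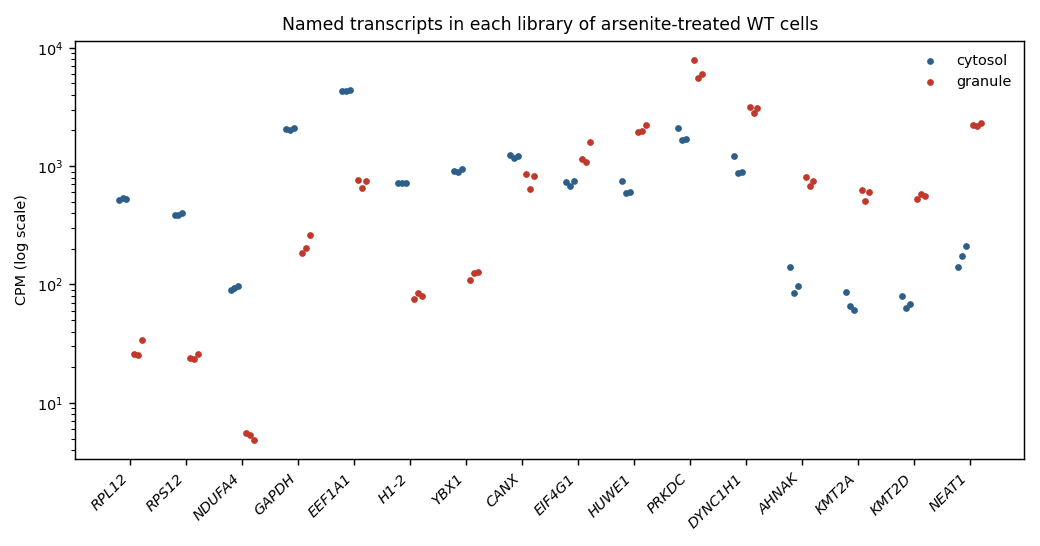
CPM (y axis, log scale) of 16 named transcripts (x axis) in each of the 3 cytosol (blue) and 3 granule (red) libraries of arsenite-treated WT cells, 1 point per library. RPL12 lies at 514, 536 and 528 CPM in cytosol and 25.8, 25.5 and 33.7 CPM in granules, KMT2D at 79.2, 63.0 and 68.0 and 528, 579.6 and 559.9, and CANX shows one of the smaller separations.

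Several classes were divided, with members called both ways, beside the background of 35.0% higher and 35.5% lower. Of kinesins, 15 of 34 rose and 8 fell (median 0.27), from KIF26B at 2.02 and the organelle transporter KIF1B at 1.51 to the chromosome motor KIF22 at -1.21. Of centrosome proteins, 19 of 40 rose and 12 fell (median 0.28): NIN was at 1.5, CEP350 at 1.22 and CEP20 at -1.93. Nucleoporins gave 9 higher and 10 lower of 25 (median 0.06). RANBP2, the giant filament nucleoporin, stood at 1.08 and NUP37, a small scaffold subunit, at -2.02.

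Cohesin and condensin genes gave 9 higher and 4 lower of 19 (median 0.12), with SMC1A of cohesin at 1.28 and NCAPG of condensin at -1.29. For DNA repair the counts were 10 and 8 of 25 (median 0.25). The end-joining protein gene XRCC6 fell from 922, 937 and 1007 CPM to 229, 219 and 254 CPM, whereas REV3L, the catalytic subunit of a translesion polymerase, rose to log2 1.28. Mediator, the bridge between transcription factors and polymerase, gave 11 and 13 of 27 (median -0.23), with MED13L at 1.81 and MED8 at -2.14.

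Transporters and traffic genes were divided as well. Of solute carriers outside SLC25, 213 of 319 were tested: 84 rose and 59 fell (median 0.17). The glutamine transporter gene SLC38A1 rose to 0.91, the lactate transporter gene SLC16A1 fell to -0.55, and the sugar transporter gene SLC50A1 was the lowest at -2.81. Of RAB GTPases, 12 of 50 rose and 23 fell (median -0.17), with RAB21 at 0.60 and RAB11A at -0.92. Of ZNF zinc-finger genes, 409 of 508 were tested, 151 rose and 101 fell (median 0.15). ZNF593 was the lowest at -2.75, and all of its exon length lies opposite another gene.

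The messages for stress granule proteins themselves were not a granule-rich class: 8 of 27 tested rose, 7 fell and the median was 0.08. G3BP1, the central nucleator, named here after its value was seen, had 575, 575 and 614 CPM in cytosol and 648, 555 and 578 CPM in granules, and the fractions overlapped (log2 0.01, edgeR adjusted p = 0.943). YBX1, a major protein of messenger ribonucleoproteins, had 901, 889 and 949 CPM and 109.7, 126 and 127 CPM, a 7.55-fold lower level. The paralogs PRRC2A and PRRC2B rose to 1.87 and 1.64.

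Genes of processing bodies and mRNA decay leaned higher, with 21 of 36 called higher, 7 lower and a median of 0.69. AGO2, the slicer of RNA interference, had 164, 131 and 138 CPM in cytosol and 646, 606 and 621 CPM in granules (log2 2.11, edgeR adjusted p = 2.50e-08). CNOT1, the scaffold of the CCR4-NOT deadenylase, stood at 1.46 and the decapping enzyme gene DCP2 at 1.58. CNOT7, a catalytic subunit on that scaffold, fell to -1.79, although its annotated transcript has 6890 bases.

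Of immediate-early and stress genes, which arsenite is known to induce, 17 of 28 tested were lower in granules and 5 higher (median -0.55). HSPA8, the constitutive HSP70, had a log2 fold change of -1.41. HSPA1B, an inducible HSP70, had 592, 665 and 657 CPM in cytosol and 369, 429 and 522 CPM in granules (log2 -0.54); its call was lost without granule replicate 1, and it shares reads with its near-identical copy HSPA1A. DDIT3, the transcription factor CHOP, was the lowest at -1.54, and EGR3 the highest at 1.43. EGR1 and FOS, early transcription factors named after their values were seen, went apart: EGR1 rose from 124, 102 and 102 CPM to 244, 215 and 269 CPM, whereas FOS fell from 114, 114 and 126 CPM to 56.8, 61.2 and 83.5 CPM.

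Among noncoding RNAs the classes split by kind. Of 3313 long noncoding RNA genes tested, 1344 rose and 770 fell, with a median of 0.47, against -0.03 for 13584 protein-coding genes. NEAT1, the architectural RNA of nuclear paraspeckles (chr11:65422774-65445540), had 142, 175 and 211 CPM in cytosol and 2223, 2164 and 2307 CPM in granules, a 12.7-fold difference (log2 3.67, SE 0.35, edgeR adjusted p = 1.43e-09). MALAT1, of nuclear speckles, had 358, 366 and 301 CPM and 447, 504 and 391 CPM and was not called (log2 0.39, edgeR adjusted p = 0.16). Its exons lie by 83.7% opposite another gene, and whether the counting used strand is not given. KCNQ1OT1 and NORAD were named after their values were seen. KCNQ1OT1, an imprinted antisense RNA, stood at log2 1.68. NORAD, a cytoplasmic RNA that binds Pumilio proteins, had 379, 369 and 405 CPM in cytosol and 1180, 816 and 949.7 CPM in granules (log2 1.35).

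Hosts of small nucleolar RNAs, whose spliced transcripts are largely noncoding and quickly decayed, were depleted: 20 of 23 tested fell, 2 rose and the median was -2.01. SNHG29 had 419.7, 421 and 439 CPM in cytosol and 83.2, 75.7 and 73.6 CPM in granules. SNHG6 was the lowest of all named long noncoding RNAs at log2 -3.48, followed among hosts by SNHG19 at -3.37, SNHG8 at -3.27 and SNHG30 at -2.93. SNHG31 went the other way at 1.44, at 5.38 CPM or less in cytosol. GAS5 and SNHG1, named after their values were seen, stood at -1.74 and -2.01.

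All 5 RNA polymerase III transcripts tested fell (median -3.10). RN7SL1, the RNA of the signal recognition particle, had 875, 912 and 875 CPM in cytosol and 115, 110.4 and 84.3 CPM in granules, and its near-identical copy RN7SL3 had 151, 166 and 183 CPM and 1.37, 2.49 and 2.77 CPM. Reads can be split between these copies. Of 404 processed pseudogenes, 256 fell and 62 rose (median -1.70). Processed pseudogenes resemble the messages of their parent genes, so their values are uncertain.

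Over all protein-coding genes with at least 5 CPM in the higher fraction, the 10 lowest values again held short messages of the classes above. ROMO1, a small protein of the inner mitochondrial membrane, was the lowest, with 80.7, 88.2 and 89.7 CPM in cytosol and 3.83, 3.94 and 4.22 CPM in granules (log2 -4.43, edgeR adjusted p = 2.53e-16). The ubiquitin-like UBL5 stood at -4.24, RPS21 at -4.17, RPS13 at -4.02 and the actin-binding thymosin gene TMSB10 at -3.96. The 10 highest held, besides KMT2A, KMT2D and AHNAK, the microtubule-binding MAP1A, the kinase gene HIPK2, the presynaptic scaffold BSN, the zinc-finger factor PRDM16 and the splicing regulator NOVA2. MAP1A had 10.8, 6.20 and 8.07 CPM and 56.7, 54.4 and 75.6 CPM (log2 2.90). HIPK2 had 76.6, 63.2 and 59.8 CPM and 488, 429.7 and 499 CPM (log2 2.83). BSN, PRDM16 and NOVA2 stood at 2.59, 2.64 and 2.58. No granule library overlapped cytosol for any of these genes, which the rule for naming them required.

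Transcript length ran along with the order of the classes. Over the 13584 protein-coding genes tested, canonical transcripts of genes higher in granules had a median of 5461 bases, those of genes lower in granules 2226, and those of genes not called 3561. Spearman's rho between length and log2 fold change was 0.60 across genes, which share libraries and are not replicates. In the shortest decile, 207 to 1332 bases, 9.70% of genes were higher and 74.7% lower, with a median log2 fold change of -1.78. In the longest decile, 7879 bases and more, 80% were higher and 5.74% lower, with a median of 1.12. The medians rose through every decile in between. Transcripts over 5 kb took 32.7, 31.6 and 30.7% of counts in cytosol and 56.8, 54.4 and 54.3% in granules, and those under 1 kb 6.08, 6.33 and 6.53% and 0.994, 1.15 and 1.17%. The median coding length was 2124 bases in genes that were higher and 1020 in genes that were lower, and the median 3′ UTR 2361 and 749 bases. Within quintiles of genes by transcript length, rho with log2 fold change ran from 0.122 to 0.338 for coding length and from -0.127 to 0.0897 for 3′ UTR length.

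**Figure D4:**
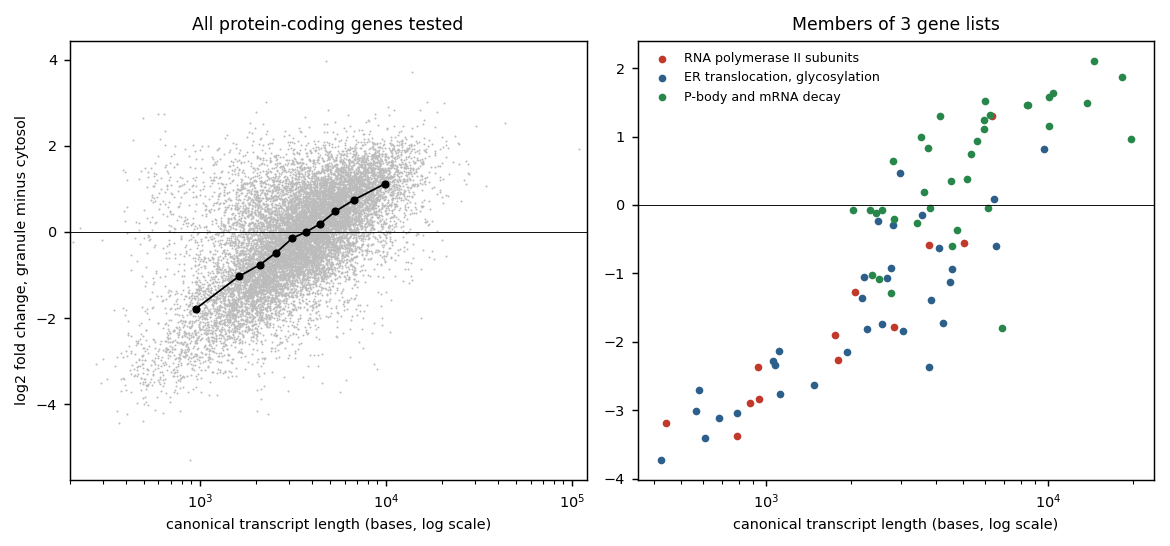
Log2 fold change, granule minus cytosol (y axes), against canonical transcript length in bases (x axes, log scale). Left, all 13584 protein-coding genes tested in grey, with black points at the median of each decile by length, from -1.78 to 1.12. Right, single genes of 3 lists, in which the shorter RNA polymerase II subunits lie low and POLR2A, the longest, lies at 1.31.

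RNA polymerase II shows the relation within one complex, whose subunits are assembled in equal numbers apart from the dissociable stalk. Across its 12 subunit genes the order by length and the order by log2 fold change had a rho of 0.97. The shortest, POLR2I at 443 bases, stood at -3.19, and POLR2L at 876 bases at -2.90. POLR2D at 5038 bases stood at -0.56, and POLR2A at 6312 bases at 1.31. POLR2I, POLR2L and POLR2D were named after their values were seen. Similar orders were found in ER chaperones (rho 0.89), histone methyltransferases and acetyltransferases (0.81), ER translocation genes (0.79) and Mediator (0.75). Other lists had a weaker order, such as respiratory chain subunits (0.42), cytoskeletal linkers (0.37), RAB GTPases (0.35), SR factors and CLK kinases (0.15) and snoRNA hosts (0.07). In replication-dependent histones, all of them short, rho was -0.18, and over long noncoding RNAs it was 0.02.

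With each library's trend over transcript length removed, the depleted classes stayed low and the enriched ones moved towards 0. The medians were then -2.69 for cytosolic ribosomal proteins, -2.65 for histones, -2.52 for respiratory chain subunits and -1.71 for snoRNA hosts. Histone methyltransferases and acetyltransferases had 0.60, with 17 of 22 still called higher. The medians of remodellers (0.21), PI3K-like kinases (0.20), large ubiquitin ligases (0.16) and cytoskeletal linkers (0.05) lay close to 0. Still called were 9 of 22 remodellers higher and 0 lower, and 3 of 6 kinases higher and 1 lower. Of ligases 1 of 14 was higher and 0 lower, and of linkers 6 of 22 were higher and 4 lower. Over all 18092 genes in this fit, 5613 were called higher and 6320 lower. The list known from published work as rich in stress granules had a median of 0.29, with 4 of 11 called higher and 2 lower. Listed nuclear long noncoding RNAs kept a median of 1.33. Those for kinesins, centrosome proteins, nucleoporins, cohesin and condensin, DNA repair, stress granule proteins and ZNF genes changed sign. So did single genes given above as higher, whose log2 values with the trend removed were -0.16 for LSM11, -0.22 for GSPT1, -0.19 for SSR1, -0.81 for RAB21, -0.06 for CHD1, -0.32 for ATR, -0.19 for BIRC6, -0.29 for UBR2, -0.06 for CEP350 and -0.09 for RANBP2. A further 16 named genes kept their sign but lost their call with the trend removed. Of genes given above as higher, DYNC1H1 then stood at 0.01, SLC38A1 at 0.05, MRPL19 at 0.1, MACF1 at 0.29 and HUWE1 at 0.31.

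U-rich sequence, which TIA1 binds, was counted as runs of TTTTT on the transcript strand of annotated 3′ UTRs of at least 50 bases. The median density was 6.58 per kb in genes higher in granules, 4.78 in genes lower and 5.04 in genes not called. Across 13355 genes rho with log2 fold change was 0.11. Within quintiles of genes by transcript length it ran from -0.12 to -0.02, so genes of similar length showed no positive relation. The element ATTTA gave a rho of 0.11 overall and -0.07 to 0.03 within quintiles, and the Pumilio motif TGTANATA 0.23 overall and 0.02 to 0.16 within quintiles. GC content of the transcript had medians of 47.1% in genes higher, 49.3% in genes lower and 49.7% in genes not called. Its rho was -0.06 overall and of the other sign within quintiles, from 0.0549 to 0.254.

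Most class differences were also present between granule fraction and cytosol after tetracycline alone. In that comparison, 7165 genes (39.5%) were higher in the pull-down and 6566 (36.2%) lower. Of cytosolic ribosomal proteins 79 of 81 were lower there, and of remodellers 21 of 22 higher. The difference of the log2 fold change with arsenite and without it was tested as an interaction and was called for 5704 genes (31.4%), 2180 higher with arsenite (12.0%) and 3524 lower (19.4%). Its median over all genes was -0.21, so values are to be read against that shift. The direction of the split changed with the filter on low counts: without one, 2856 genes were called higher and 2041 lower. It held with RLE scaling, at 2345 and 3276, and with library size alone, at 2053 and 3531. The cause was not tested. Ranges given next are over the 18 alternatives run for this difference.

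By median difference, the largest class shifts concerned noncoding and mitochondrial RNA. The 5 RNA polymerase III transcripts went from a median of -1.19 to -3.10, the widest median difference of the lists at -1.91 (range -2.24 to -1.38), and 3 were called lower (range 2 to 4). For snoRNA hosts the median log2 fold change was -1.02 without arsenite and -2.01 with it, and 16 of 23 were called lower (range 13 to 17) and 0 higher. SNHG1 went from -0.02 to -2.01 (difference -1.99, edgeR adjusted p = 1.45e-06), and GAS5 from -0.23 to -1.74. Nuclear long noncoding RNAs had medians of 2.34 and 1.24, with 7 of 11 lower (range 5 to 8) and 1 higher (range 0 to 1). The median difference of -0.98 became -1.56 without cytosol replicate 1 of the cells given tetracycline alone and -0.72 without replicate 2. MALAT1 went from 1.85 to 0.39 and NORAD, against the trend, from -0.40 to 1.35. Over all long noncoding RNAs 813 of 3313 were called lower and 86 higher. The mitochondrial genome had medians of 1.40 and 0.04, and 3 of 15 were called lower, close to the share of 19.4% over all genes. This count was 5 and the median difference -2.40, against -1.54, without granule replicate 3 of arsenite-treated cells. The count was 1 without granule replicate 1 of the cells given tetracycline alone and with no filter.

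Cytosolic ribosomal proteins were more strongly depleted with arsenite: the median went from -2.50 to -3.07, 32 of 81 were called lower (range 14 to 43, the former with no filter on low counts) and 1 higher. RPL12 went from -3.11 to -4.21 (difference -1.11, edgeR adjusted p = 0.00116). Cytoskeletal linkers, enriched in both conditions, were less so with arsenite, at medians of 2.19 and 1.37, with 14 of 22 lower (range 11 to 16) and 2 higher (range 0 to 2). MACF1 went from 3.97 to 2.06, whereas MAP1A went from 0.95 to 2.90. PI3K-like kinases and large ubiquitin ligases had no member called either way in edgeR's test, none at an unadjusted p under 0.05 and none with DESeq2. With no filter on low counts 1 member of each was called higher, and without cytosol replicate 1 of the cells given tetracycline alone 2 ligases were called lower. The ligases' median difference ran from -0.20 to 0.09.

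Messages for ER proteins moved the opposite way. ER chaperones had medians of -1.78 without arsenite and -1.23 with it, and 7 of 17 were called higher and 0 lower (13 and 0 with no filter on low counts). CANX went from -1.74 to -0.64 (difference 1.10, edgeR adjusted p = 0.00265), and HYOU1 from -1.55 to -0.04. For ER translocation and glycosylation 8 of 32 were higher and 3 lower (13 and 0 with no filter), and for RAB GTPases 11 (range 8 to 13) and 3 (range 2 to 4) of 50. Among genes with a symbol and at least 5 CPM on average in the highest group, the 5 with the smallest p in this test all went up. DPY19L1, a multipass transferase of the ER, went from -0.70 to 1.53, and POFUT1, an O-fucosyltransferase of the ER, from -1.21 to 0.73. INSIG1, the ER regulator of sterol synthesis, went from -1.77 to -0.02, no longer below cytosol. DENND11 went from -0.14 to 1.55 and GID8, a ubiquitin ligase subunit, from -0.86 to 0.81. Decapping enzyme DCP2 showed a like difference, from -0.13 to 1.58.

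**Figure D5:**
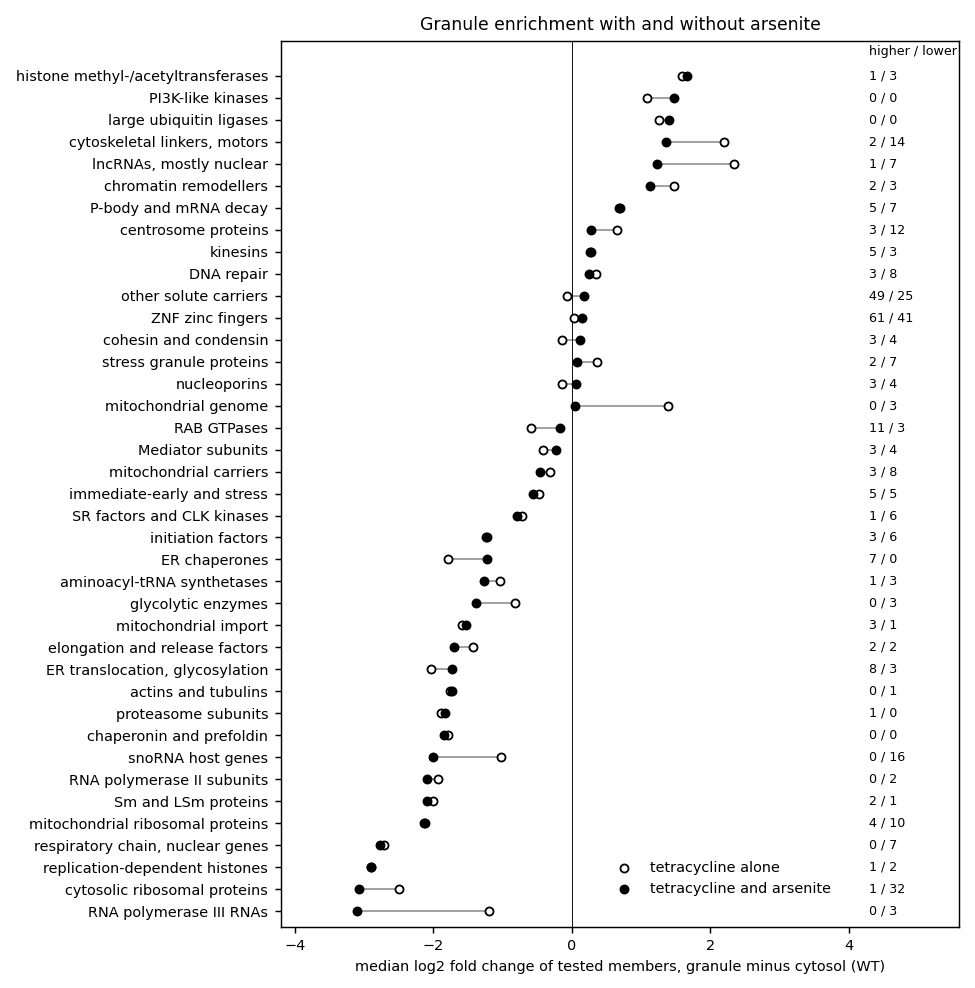
Median log2 fold change, granule minus cytosol (x axis), of the tested members of 39 gene lists (y axis) in WT cells after tetracycline alone (open circles) and after tetracycline and arsenite (filled circles). At the right stand the numbers of members whose fold change was called higher and lower with arsenite. SnoRNA hosts go from -1.02 to -2.01 and ER chaperones from -1.78 to -1.23.

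The same classes were set apart in arsenite-treated cells of the WDM line. There, 13065 genes were called (72.0%), of which 6586 (36.3%) were higher in granules and 6479 (35.7%) lower. All 81 ribosomal protein genes were lower (median -3.06), and 19 of 22 histone methyltransferases and acetyltransferases were higher (median 1.48). RPL12 stood at -4.16, KMT2D at 3.33 and NEAT1 at 3.23. The difference between the lines was called for 1 gene of 18141 (0.00551%), with 1200 at an unadjusted p under 0.05 and 1 with DESeq2. This was CALCB, a calcitonin-related peptide gene, at -0.66 in WT and 0.98 in WDM (difference 1.64, edgeR adjusted p = 0.0086), and it was not called without granule replicate 3 of WT. The medians of PI3K-like kinases were 1.48 in WT and 0.91 in WDM.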

How the data were processed

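The authors deposited 1 table of raw read counts, with genes in rows and the 30 libraries in columns. RNA was depleted of rRNA and made into strand-specific libraries, per the labels' protocols. The submitters' processing notes name Trimmomatic, STAR, Picard, featureCounts and GRCh38, without versions or roles. The annotation release and the settings for strand and shared reads are not given in the sources used here.

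The test was edgeR's (version 4.0.16, R 4.3.3). After filterByExpr at a count of 10 and a total of 15 and TMM scaling, 1 robust quasi-likelihood model of 8 group means was fitted to the 24 libraries of tetracycline-treated cells. Benjamini-Hochberg adjustment ran over the 18141 genes that passed, with calls below 0.05. CPM values are given per library. The labels give no batch. The biological coefficient of variation was 0.145. Between replicates, the chi-square per degree of freedom ran from 2.80 to 28.5, more than sampling noise in each pair. The fit was tested first on simulated data in which few genes were changed, equally up and down. Most genes differ here, so the simulation could not show whether the scaling between libraries holds.

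Transcript features and starts come from canonical transcripts of GENCODE v44, in which 60463 of 60664 gene IDs were found. Exon overlaps used bedtools 2.31.1, and figures Python 3.11.15 with pandas 2.3.3 and matplotlib 3.10.9. The libraries, the 41 gene lists and the rule for named genes were chosen with earlier results of these data known. The rule took, for each list, the 2 most abundant members and the highest and lowest fold change. Among called genes with a symbol, at least 5 CPM and no overlap between groups, it took the 10 highest and 10 lowest protein-coding genes. Under the same limits it took 5 and 5 long noncoding RNAs. It then took the 5 smallest p-values of each interaction among genes with a symbol and at least 5 CPM on average in the highest group. TIA1 and TIAL1 were added. Not all of these are named. POLR2L, POLR2I, POLR2D, GAS5, SNHG1, EGR1, FOS, KCNQ1OT1, CDH1, EPCAM, G3BP1 and NORAD fall outside it and were chosen after their values were seen. Alternatives were RLE scaling, library size alone, no filter on low counts, a replicate block, fits of only the libraries compared, each library left out, DESeq2 1.42.0, a fit without mitochondrial, RNA polymerase III and rRNA genes, and removal of each library's trend over transcript length.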

Additional observations from a re-analysis of the deposited data

Results flagged for a closer look

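The difference between the log2 fold change with arsenite and without it in WT cells was called for 5704 genes, and that between the WDM and WT lines under arsenite for 1, CALCB (1.64). The following genes, all named above, had a called difference between the conditions (edgeR interaction, with arsenite minus without, log2). Ribosomal protein and elongation genes with a lower value under arsenite had -1.11 for RPL12, -1.07 for RPS12, -0.78 for RPS13, -0.87 for RPS21, -0.80 for EEF1A1 and -0.85 for EEF2. Other messages for small or abundant proteins that were lower had -0.77 for GAPDH, -0.74 for VIM, -0.65 for POLR2G, -0.72 for ROMO1 and -0.77 for NUP37. The mitochondrial genome gave -1.90 for MT-CO1 and -1.77 for MT-CO3. Noncoding RNAs that were lower had -1.99 for SNHG1, -1.39 for SNHG6, -1.41 for SNHG8, -1.58 for SNHG19, -1.08 for SNHG29, -2.32 for SNHG31, -1.51 for GAS5, -1.46 for MALAT1, -1.92 for KCNQ1OT1, -1.91 for RN7SL1 and -2.37 for RN7SL3. NORAD was the long noncoding RNA named above that was higher, at 1.75. Long messages and regulators that were lower had -1.91 for MACF1, -1.31 for CEP350, -0.74 for EIF4G3, -0.63 for REV3L, -0.67 for NCAPG, -1.60 for SLC25A21, -1.87 for PAX2, -1.21 for EGR1, -1.36 for FOS, -1.33 for TIAL1 and -1.18 for PRDM16. Genes of the ER and of membranes that were higher had 1.51 for HYOU1, 1.10 for CANX, 0.89 for HSP90B1, 0.71 for RPN2, 1.27 for SSR1, 2.23 for DPY19L1, 1.94 for POFUT1, 1.74 for INSIG1, 1.07 for SLC16A1, 0.91 for SLC38A1, 0.70 for RAB11A, 1.16 for RAB21, 1.36 for CDH1 and 0.68 for EPCAM. Further genes that were higher had 1.2 for MRPL19, 0.69 for LSM11, 0.62 for GSPT1, 0.89 for TOMM20, 0.64 for KIF1B, 0.76 for CNOT1, 1.71 for DCP2, 1.95 for MAP1A, 1.69 for DENND11 and 1.67 for GID8. The median of this difference over all genes was -0.21, and the number of named genes is set by the rule for naming, not by this test.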

How the results depend on the processing

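The count of genes called between granules and cytosol ran from 11809 to 13378 over the alternatives, against 12797, and that of the arsenite difference from 4309 to 6288, against 5704. With no filter on low counts the median over all genes was 0.16 (log2), against 0.05, the split of the comparison was 7187 higher and 6191 lower, and that of the arsenite difference 2856 and 2041, against 2180 and 3524. The line difference gave 0 genes without WT granule replicate 3 and 2 without WDM cytosol replicate 2. Of 151 genes named, 115 kept their direction and their side of the threshold in every setting run, 7 lost their call when 1 library was left out, and 17 changed sign in at least 1 setting, 12 of them only with the length trend removed. The cause was not tested beyond what each setting changes. With the length trend removed, log2 fold changes of the other sign were 0.30 for MT-CO1, -0.16 for LSM11, -0.22 for GSPT1, -0.19 for SSR1, -0.81 for RAB21, -0.06 for CHD1, -0.32 for ATR, -0.19 for BIRC6, -0.29 for UBR2, -0.83 for FLNA, -0.06 for CEP350, -0.09 for RANBP2, -0.68 for MALAT1, 0.15 for INSIG1 and -1.04 for G3BP1, and list medians -0.21 for kinesins, -0.26 for centrosome proteins, -0.47 for nucleoporins, -0.28 for cohesin and condensin, -0.37 for DNA repair, -0.07 for stress granule proteins, -0.04 for ZNF genes and -0.03 for all genes tested. A further 16 named genes kept their sign but lost their call in that setting. Genes not called between the fractions and lists near 0 changed sign elsewhere. HYOU1 had 0.00 with RLE, 0.06 with no filter, 0.07 without granule replicate 1, 0.04 without granule replicate 2 and 0.00 with DESeq2. FLNA had -0.01 without cytosol replicate 2 and -0.01 without granule replicate 3. TRIP11 had 0.03 without granule replicate 2. INSIG1 had 0.03 with RLE, 0.08 with no filter, 0.05 without granule replicate 2, 0.02 without granule replicate 3 and 0.02 with DESeq2. G3BP1 had -0.03 without cytosol replicate 1, -0.03 without cytosol replicate 2 and -0.06 without granule replicate 1. The median of the mitochondrial genome had -0.12 under the replicate block, -0.05 without cytosol replicate 1, -0.17 without cytosol replicate 2 and -0.88 without granule replicate 3. The median of nucleoporins had -0.10 without granule replicate 1. Leaving out 1 library at a time, values ran from -0.01 to 0.17 for FLNA, from -0.24 to 0.03 for TRIP11, from -0.26 to 0.07 for HYOU1, from -0.16 to 0.05 for INSIG1 and from -0.06 to 0.06 for G3BP1, and medians from -0.88 to 0.37 for the mitochondrial genome and from -0.10 to 0.14 for nucleoporins.

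The values do not settle whether same-numbered libraries are paired. Deviations of same-numbered cytosol and granule libraries correlated at 0.06, 0.20 and 0.23, and those of unlike numbers at -0.203 to 0.0047. Each granule library correlated best with its own number. The main fit took the libraries as unpaired. With the number as a replicate block, 12973 genes were called between fractions, 7765 by at least log2 1, 6288 for the arsenite difference and 1 for the line difference. With 3 libraries a group, precision is set by the spread between libraries, larger in granules than in cytosol.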
